A study of Homo sapiens with 2 samples.

Results

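The LSD1 peaks of human chromosome 8 were described arm by arm in PC-3M-luc cells. Every peak that the deposited list places on chromosome 8 was taken, 688 of 20110 (3.42%). A peak with its midpoint before 45.6 Mb (hg19) was put on the short arm and any other peak on the long arm, which gave 196 and 492 peaks. The boundary lies inside the centromeric assembly gap. The last short-arm peak was at the promoter of HGSNAT, a lysosomal acetyltransferase gene (42995084 to 42997130, score 403.63), 2.60 Mb before the boundary. The first long-arm peak was at the promoter of SPIDR, a DNA repair scaffold gene (48172845 to 48174074, score 566.94), 2.57 Mb beyond it, so no peak changes arm with a small shift of the boundary.

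PC-3M-luc is a luciferase-marked human prostate carcinoma line of the PC-3 lineage, labelled here with the genotype Control, used at passages 17 to 20 and grown in EMEM with serum and glutamine. One LSD1 chromatin immunoprecipitation library and one input library were sequenced, each from these same cells and each labelled as replicate 1. The authors deposited a single peak list, taken here as LSD1 called against the input, and the read depth behind it is unknown. With 1 library per group, no value has a replicate check, and intervals are 95% and cover counting error only. The intervals treat peaks or genes as independent. Many peaks lie close together, so the intervals can be too narrow.

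LSD1 (KDM1A) is a demethylase that removes the mono- and dimethyl marks of histone H3 lysine 4, usually within CoREST-type corepressor complexes, and it is also found at promoters of active genes. Chromosome 8 is of interest in prostate cancer because loss of its short arm and gain of its long arm are among the common chromosome changes of the disease, and the long arm carries the oncogene MYC. The PC-3 lineage has an abnormal karyotype, and the copy number of either arm in these cells was not analysed here.

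Per megabase (Mb) of sequence, the whole arms did not differ beyond counting error. The short arm had 4.48 peaks per Mb (interval 3.88 to 5.16) over 43.7 Mb outside assembly gaps, and the long arm had 4.96 (4.53 to 5.42) over 99.2 Mb. The ratio of long to short was 1.11 (0.936 to 1.31). Both values were below the 7.03 peaks per Mb of the whole list. Among 40 chromosome arms of at least 20 Mb, the long arm ranked 29 and the short arm 32 from the highest density. The result rested on the telomeric end of the long arm. Without its last 5 Mb the ratio was 0.818 (0.685 to 0.980), and without the last 5 Mb of each arm 0.748 (0.624 to 0.897). In what remained the short arm was the denser beyond counting error. The removed ends were the densest window of the long arm (30.5 peaks per Mb) and the sparsest of the short arm (1.20). Their removal therefore lowers the ratio by construction.

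Per protein-coding gene, the long arm had more peaks. The short arm held 285 protein-coding genes and 0.688 peaks per gene (0.595 to 0.791), while the long arm held 424 genes and 1.16 peaks per gene (1.06 to 1.27). The ratio was 1.69 (1.43 to 2.00), and the list as a whole had 0.997 peaks per gene. The short arm is the more gene-dense of the pair, with 6.52 coding genes per Mb against 4.28. It held 30.6% of the sequence of chromosome 8, 40.2% of its coding genes and 28.5% of its peaks. By peaks per gene the long arm ranked 9 and the short arm 37 of the 40 arms. Of 17 chromosomes with both arms long enough to compare, only chromosome 12 had a higher long-to-short ratio per gene (1.79).

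**Figure D1:**
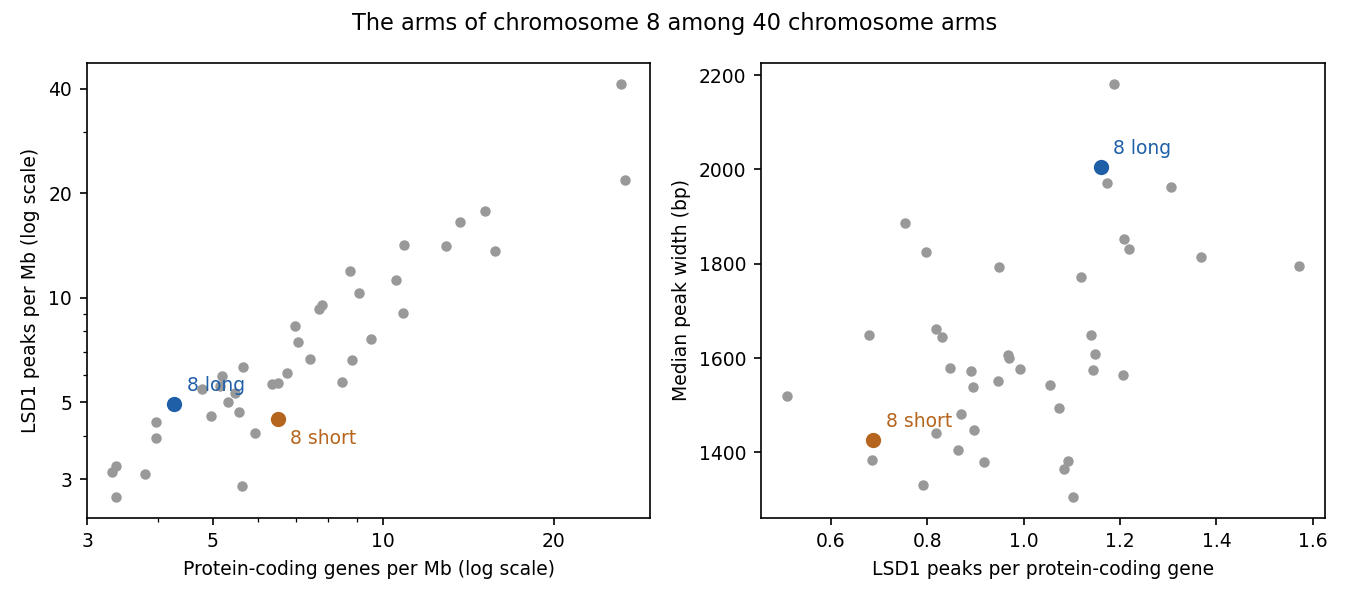
Left, LSD1 peaks per Mb against protein-coding genes per Mb, both on log scales, and right, median peak width against peaks per coding gene, with 1 point for each of 40 chromosome arms. The arms of chromosome 8 are close in peaks per Mb (4.48 and 4.96) but lie apart in peaks per gene (0.688 and 1.16) and in median width (1427 and 2006 bp).

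Part of the short arm's gene number comes from multi-copy families. Among them are the defensins, small antimicrobial peptides, and the FAM90A and USP17L genes near them, and not all of these families are named here. These families hold 59 of the 285 genes, none of which had a promoter peak. Without them the ratio per gene was 1.34 (1.13 to 1.59), chosen as a comparison after the data were seen. The long arm lost 0 genes, so this removal could only lower the ratio. Some of their copies are nearly identical, and the sources do not give how reads that map to several places were handled. This leaves the absence of a peak at such copies uncertain.

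A coding gene was counted as having a promoter peak where a peak's midpoint lay within 1 kb of any of its annotated start sites. By this rule 129 short-arm genes (45.3%, 39.4 to 51.2) and 235 long-arm genes (55.4%, 50.6 to 60.2) had one, beside 54.6% of coding genes on all chromosomes. The difference was 10.2 percentage points (2.45 to 17.7), but the long arm's share is close to the background. The interval of the difference reached 0 with the canonical start sites alone (7.07, -0.623 to 14.6), without the widest 1% of peaks (6.86, -0.853 to 14.5) and with peaks under 1 kb apart joined (7.56, -0.151 to 15.2). Without the multi-copy families the short arm's share was 57.1% and the difference turned to -1.66 points. That removal took only short-arm genes without a promoter peak, so it could only raise the short arm's share. Counting any base of a peak within 1 kb added 0 genes on the short arm, which stayed at 129, and brought the long arm to 265 (62.5%), beside a background of 58.1%. The difference was then 17.2 points (9.57 to 24.7), and by midpoint with a window of 5 kb it was 17.8 (10.2 to 25.3).

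Counted by any base of a peak, genes with CpG-rich promoters had one about as often on both arms. CpG-poor promoters had one more often on the long arm. A promoter was called CpG-rich where the 1000 bp around the canonical start site had a GC content over 55% and an observed-to-expected CpG ratio over 0.65. At these start sites a peak was counted by any base within 1 kb, a rule met by 55.6% of coding genes on all chromosomes. Compared with the midpoint rule, it raised the long arm from 210 to 257 genes and left the short arm at 121. CpG-rich promoters had a peak at 106 of 143 genes on the short arm (74.1%) and 207 of 272 on the long arm (76.1%). These shares differed by 1.98 points (-6.90 to 11.4), with 77.1% over the genome. By midpoint within 1 kb of any start site they were 74.8% and 68.75%, a difference of -6.08 points (-15.1 to 3.56). CpG-poor promoters had a peak at 15 of 139 genes on the short arm (10.8%, 6.17 to 17.2) and 50 of 144 on the long arm (34.7%, 27.0 to 43.1), with 27.7% over the genome. The difference among CpG-poor promoters was 23.9 points (13.9 to 33.5). It was 16.4 points (3.73 to 27.8) without the multi-copy families and 15.9 (2.70 to 28.0) without these and the last 5 Mb of the long arm. Removing the families could only narrow it. No midpoint value of this difference was computed.

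**Figure D2:**
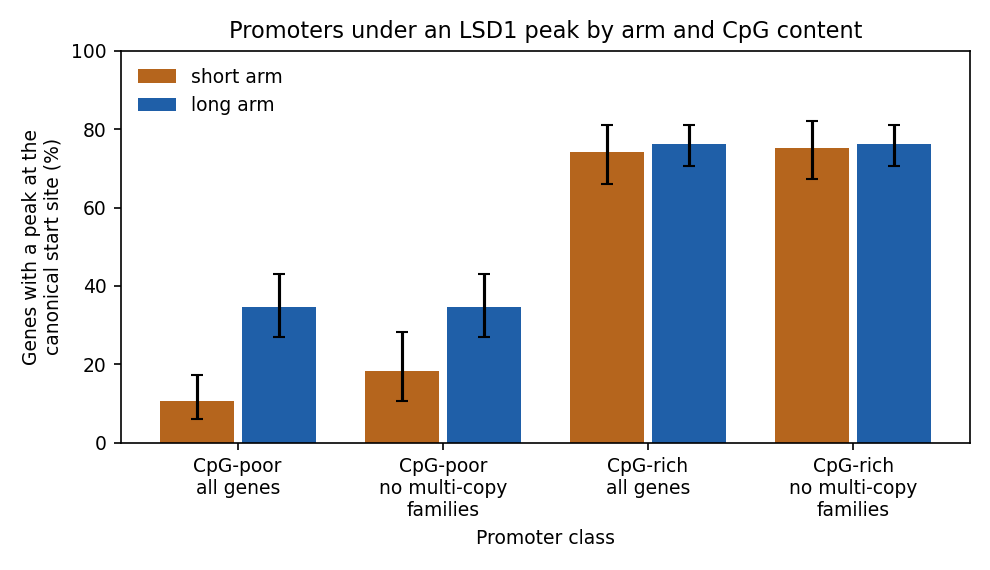
Share of protein-coding genes with any base of a peak within 1 kb of the canonical start site (percent, y axis), for CpG-poor and CpG-rich promoters. Bars show the short arm (orange) and the long arm (blue), with all genes and without multi-copy families, and with 95% binomial intervals. The arms are close for CpG-rich promoters (74.1% and 76.1%) and apart for CpG-poor ones (10.8% and 34.7%, or 18.3% and 34.7% without the families).

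The peaks of the short arm sat more often at promoters. Of the 196 short-arm peaks, 128 (65.3%, 58.2 to 71.9) had their midpoint within 1 kb of a coding start site, against 242 of the 492 long-arm peaks (49.2%, 44.7 to 53.7) and 55.1% in the whole list. The difference was -16.1 points (-24.1 to -7.70) for long minus short. Counted by any base within 1 kb, the shares were 67.3% and 55.1%, a difference of -12.3 points (-20.2 to -3.93). With a window of 5 kb the difference was -11.7 points (-19.0 to -3.81). The short arm ranked 3 and the long arm 36 among the 40 arms for this share. Introns held 20 short-arm peaks (10.2%) and 101 long-arm peaks (20.5%), and intergenic sequence held 36 (18.4%) and 120 (24.4%). Peaks over 10 kb from every coding start site numbered 34 (17.3%) and 131 (26.6%).

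Per Mb, promoter peaks by midpoint were 0.834 times as dense on the long arm as on the short arm (0.670 to 1.04). Peaks with the midpoint away from promoters were 1.62 times as dense (1.24 to 2.15), at 2.52 against 1.56 per Mb. Some peaks of this class still cover a start site, as at CTHRC1 and EXOSC4 on the long arm. Without the last 5 Mb of the long arm the density away from promoters was 1.76 per Mb, and the ratio was 1.13 (0.848 to 1.52), within counting error.

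The last 5 Mb of the long arm (141364023 to 146364022) held 146 peaks, 29.7% of the arm's total, and 110 coding genes, 25.9% of its genes. The density there was 30.5 peaks per Mb. The adjoining 5 Mb held 3 peaks and 4 coding genes. A single peak and a single coding gene lay in the 5 Mb that start 30 Mb from the telomere. On the short arm the order was different: the telomeric 5 Mb held 6 peaks, and the busiest windows were those at 25 to 30 Mb (43 peaks, 34 genes) and 20 to 25 Mb (41 peaks, 49 genes). The short-arm window at 5 to 10 Mb held the most coding genes of the arm, 61, and 13 peaks. It contains the multi-copy defensin region.

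Across windows of 5 Mb, peak counts followed coding genes on the long arm (Pearson r = 0.966, Spearman correlation 0.720 over 20 windows) and less closely on the short arm (r = 0.382, Spearman correlation 0.477 over 9 windows). Against CpG-rich genes the values were r = 0.972 and a Spearman correlation of 0.750 on the long arm and r = 0.829 and a Spearman correlation of 0.937 on the short arm. These are descriptions over windows of the same library, and the long arm's r rests largely on the telomeric window.

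**Figure D3:**
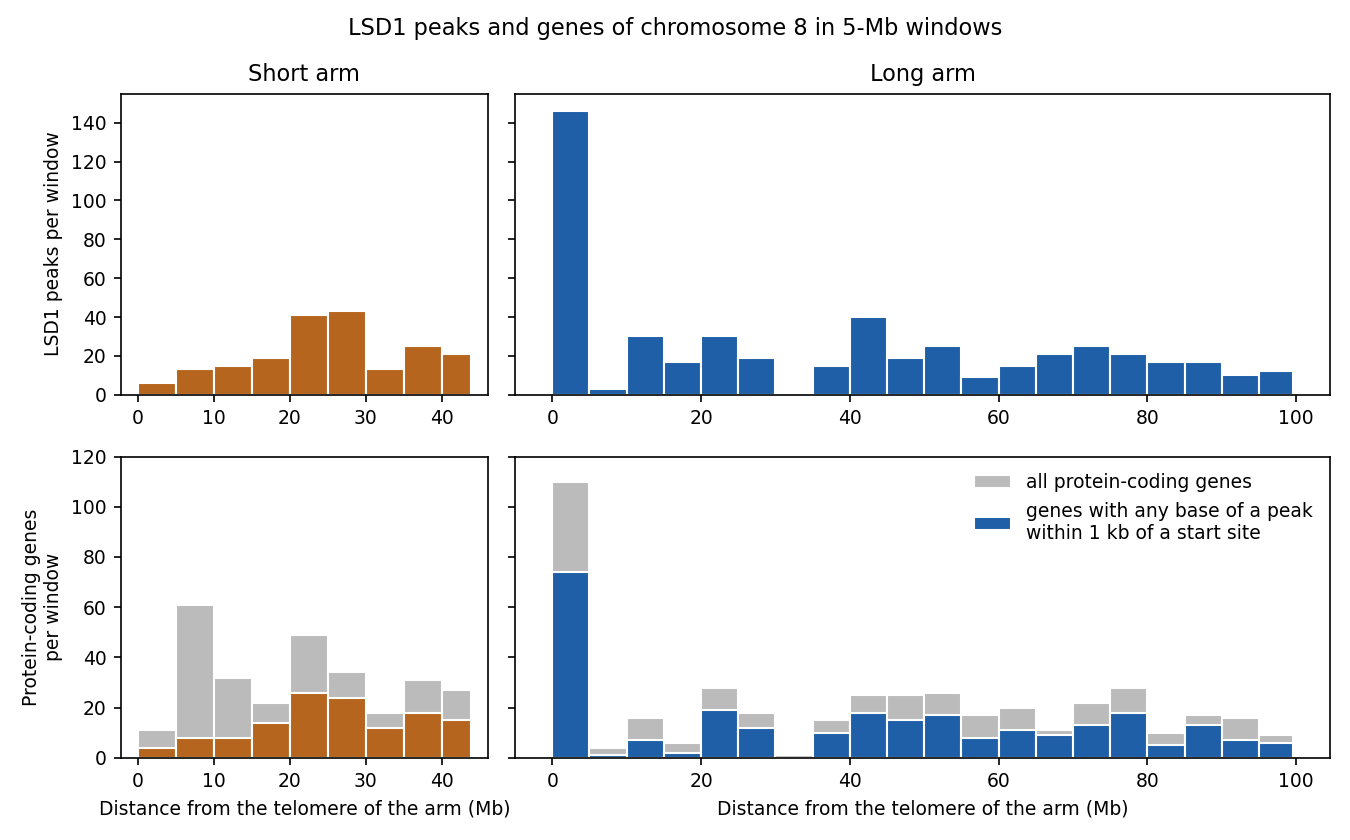
Peaks (top, count) and protein-coding genes (bottom, count) in 5-Mb windows by distance from the telomere of each arm (Mb, x axis), where the coloured part of a lower bar counts genes with any base of a peak within 1 kb of a start site and the grey part those without. The telomeric window of the long arm holds 146 peaks and 110 genes, while the short arm's busiest windows, 43 and 41 peaks, lie 20 to 30 Mb from its telomere.

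The genes of the telomeric long-arm window included several with very high scores. The authors' score, read as a measure of the peak caller's evidence, serves here as a rank and a description within the list. It has a repeated upper value of 3100, shared by 206 peaks of the list. One peak of 19011 bp at this value (145570106 to 145589116) covered the start sites of FBXL6, an F-box gene, SLC52A2, a riboflavin transporter, TMEM249 and the unnamed gene ENSG00000271698. A separate one covered RPL8, a protein of the large ribosomal subunit (146011557 to 146021359). Another lay at CHRAC1, a subunit of a chromatin remodelling complex, with a width of 4118 bp. Peaks at this value also covered EXOSC4, an RNA exosome subunit, with GPAA1, and CYC1, the cytochrome c1 gene, with SHARPIN. In all, 5 of the long arm's peaks at or above 3100 lay in this window, yet the window's median score was 168.44.

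In the short arm's busiest window the highest scores were 3100 at DUSP4, a phosphatase that inactivates MAP kinases, 797.01 at ELP3, the catalytic subunit of Elongator, 774.71 at PPP2R2A, a regulatory subunit of protein phosphatase 2A, and 625.99 at SARAF, a regulator of calcium entry. DPYSL2 (590.37) and BNIP3L (531.07), a mitophagy receptor, followed.

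Over all peaks the scores of the arms were close. The median was 194.76 (159.56 to 241.5) on the short arm and 198.985 (163.81 to 243.84) on the long arm, a difference of 4.23 (-54.3 to 61.2), beside 205.87 in the whole list. Peaks at or above the list's median made up 48.0% of the short arm and 49.0% of the long arm. Among the peaks that pass a score filter the long arm's median was the higher, by 90.2 (2.20 to 204) for scores of at least 100 and by 115 (0.668 to 258) for scores at or above the list's median. At promoters the long arm's scores were higher: the median was 479.655 against 312.595, with 362.18 for all promoter peaks of the list. That difference was 167 (60.6 to 288), and 130 (31.7 to 259) without the last 5 Mb. For peaks in introns and intergenic sequence the medians were 88.99 and 81.205, a difference of 7.79 (-20.2 to 27.4).

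The highest of 4 equal groups of the list by score held 42 short-arm peaks (21.4%, 15.9 to 27.8) and 137 long-arm peaks (27.8%, 23.9 to 32.0), with overlapping intervals. The short arm had 1 peak at 3100, that of DUSP4 (29204716 to 29211236, 6521 bp). Its next highest peaks were at TTI2 (1911.34, 33370116 to 33371775), a partner in the assembly of large kinases, where the peak also covers the small nucleolar RNA gene SNORD13, and POLR3D (1770.51, 22101732 to 22103279), an RNA polymerase III subunit, where it also covers the microRNA gene MIR320A. They were followed by EIF4EBP1 (1646.33), an inhibitor of cap-dependent translation, and ZNF703 (1570.45), a transcriptional cofactor. The scores at SMIM19 with SLC20A2 (1142.15), XKR6 (1049.13) and MAK16 (1023.45) completed the highest 8 of the arm.

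The long arm had 8 peaks at 3100 and 1 above it. That one, with a score of 3147.38, covered the start site of CTHRC1, a secreted collagen triple helix protein (104383214 to 104389003). Its midpoint lay 1447 bp from the start site, so it was counted as intronic and not as a promoter peak. Beyond the telomeric window, peaks at 3100 lay at ST3GAL1, a sialyltransferase (134574585 to 134588715), at HEY1, a Notch-responsive repressor (80674745 to 80683548), and at YWHAZ, a 14-3-3 protein (101962054 to 101966344).

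Long-arm peaks were wider. The median width was 2006 bp (1919 to 2138) on the long arm and 1427 bp (1299 to 1522) on the short arm, a difference of 579 bp (450 to 763), beside 1649 bp in the whole list. Of 40 arms the long arm ranked 2 and the short arm 33 by median width. The difference was present at promoters, with 2169 against 1543 bp, and in introns and intergenic sequence, with 1789 against 1109 bp. It was also present in each of 4 equal groups of the list by score, from 1225 against 886 bp in the lowest group to 3181 against 2045.5 bp in the highest. Without the last 5 Mb of the long arm the overall difference was 493 bp (361 to 666). Peaks covered 1.40% of the long arm's sequence and 0.698% of the short arm's.

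Along the long arm, width fell away from the telomere. The median was 2543.5 bp (2035 to 2930) over 146 peaks in the last 5 Mb and 2309.5 bp (2149 to 2591) over the 80 peaks from 5 to 25 Mb. It was 1834 bp (1613 to 2006) over the 94 peaks from 25 to 50 Mb, 2006 bp (1798 to 2190) over the 95 from 50 to 75 Mb and 1603 bp (1297 to 1845) over the 77 farther in. The intervals of neighbouring stretches overlap in part, and the stretch from 50 to 75 Mb is above the one before it. Over the 18 windows of 5 Mb with at least 5 peaks, the Spearman correlation between median width and distance from the telomere was -0.711. On the short arm it was -0.467 over 9 windows, whose medians ran from 1188 to 1700 bp. Read depth and copy number along the arms were not analysed here, and their part in peak width was not tested.

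**Figure D4:**
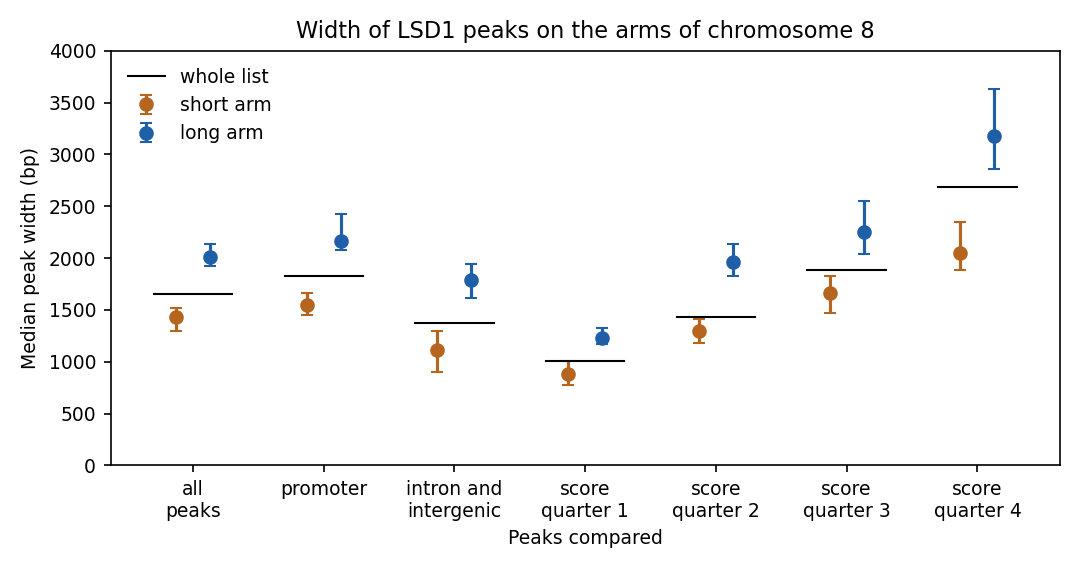
Median peak width (bp, y axis) with 95% intervals for the short arm (orange) and the long arm (blue), over all peaks, by position and in 4 equal groups of the list by score, from the lowest to the highest, with a line at the median of the whole list. Long-arm medians exceed short-arm medians in each class shown, for example 2169 and 1543 bp at promoters and 1789 and 1109 bp in introns with intergenic sequence.

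Peaks over 5 kb numbered 1 on the short arm and 47 on the long arm, 28 of these in its last 5 Mb, and peaks over 10 kb numbered 0 and 12, of 131 in the list. The widest, 35292 bp with a score of 2966.19 (145720954 to 145756245), covered start sites of RECQL4, a DNA helicase, and of 6 other genes, among them GPT, an alanine aminotransferase. At NDRG1, a stress-responsive gene that has been studied as a metastasis suppressor, there was a peak of 29855 bp with a score of only 82.21 (134246161 to 134276015). A second NDRG1 peak spanned 17552 bp with a score of 1893.35 (134293548 to 134311099). Their widths and scores thus ran in opposite order. GLI4 had a peak of 16346 bp with a score of 295.73. On the short arm the widest after DUSP4 lay in an exon of RHOBTB2 (3900 bp, 973.78), at EIF4EBP1 (3777 bp), in an exon of ZNF703 (3621 bp) and at DPYSL2 (3470 bp).

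Neighbouring peaks were common on both arms. Peaks with another within 12.5 kb made up 40.8% of the short arm, 47.6% of the long arm and 53.7% of the whole list. The largest group on the long arm had 10 peaks over AGO2, the slicer Argonaute, and 13 peaks overlapped this gene in all, with scores from 50.07 to 497.26. ASPH, an aspartyl hydroxylase, followed with 9, DENND3 with 7, and EIF3E, a translation initiation factor subunit, and ST3GAL1 with 6 each. The short arm's largest group, 7 peaks, lay at CTSB, the cathepsin B gene, which 5 peaks overlapped. Long genes can hold more peaks, and these counts are not per length.

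The short arm had 10 peak-free stretches of at least 1 Mb, which took up 22.4 Mb or 51.3% of its sequence. The long arm had 24, which took up 44.7 Mb or 45.0%. Their median lengths were 1.62 and 1.57 Mb. The difference in share, -6.25 points, turned direction under several settings, among them a minimum length of 500 kb (7.38 points). Outside these stretches the arms had 9.20 and 9.03 peaks per Mb, a ratio of 0.981 (0.830 to 1.16).

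What the stretches contained differed. Short-arm stretches held 92 coding genes, 32.3% of the arm's genes, and long-arm stretches 47, or 11.1%. Of these 92 genes, 51 lay in a single stretch of 1.53 Mb (6567084 to 8146497) that spans the multi-copy defensin region. For CpG-rich promoters the shares were 16 of 143 (11.2%) and 18 of 272 (6.62%).

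The longest short-arm stretch ran for 4.49 Mb (1772552 to 6262907) and held 3 coding genes: CSMD1, a very large gene for a complement regulator, MYOM2, a sarcomere protein, and KBTBD11. Its flanking peaks were at the promoters of ARHGEF10 (196.59) and MCPH1 (757.76), a regulator of chromosome condensation. The next, 3.93 Mb (33424971 to 37350385), held UNC5D, a netrin receptor, DUSP26 and KCNU1. A stretch of 3.61 Mb (11735731 to 15397241) held 15 genes, including DLC1, a GTPase-activating protein, and SGCZ. One of 2.44 Mb (30891868 to 33329937) held NRG1, the neuregulin that binds ERBB receptors. It began beside the promoter peak of WRN (168.01) and ended beside that of FUT10 (249.79). LZTS1, GFRA2 and DOK2 lay in a stretch of 1.72 Mb (20055439 to 21775671).

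The longest stretch of the chromosome, 5.41 Mb on the long arm (110658182 to 116067759), held CSMD3, a relative of CSMD1, and KCNV1, a silent potassium channel subunit. The next held RALYL (3.26 Mb, 82755363 to 86019005) and FAM135B (3.08 Mb, 136471639 to 139546727). A stretch of 2.49 Mb (68256921 to 70745076) held PREX2, CPA6, C8orf34 and SULF1, a heparan sulfate sulfatase. One of 2.41 Mb (64133451 to 66545510) held BHLHE22 and CYP7B1, an oxysterol hydroxylase. The sixth, 2.23 Mb (126453359 to 128680538), lay on the centromeric side of MYC and held LRATD2 and POU5F1B, a retrogene related to POU5F1.

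**Figure D5:**
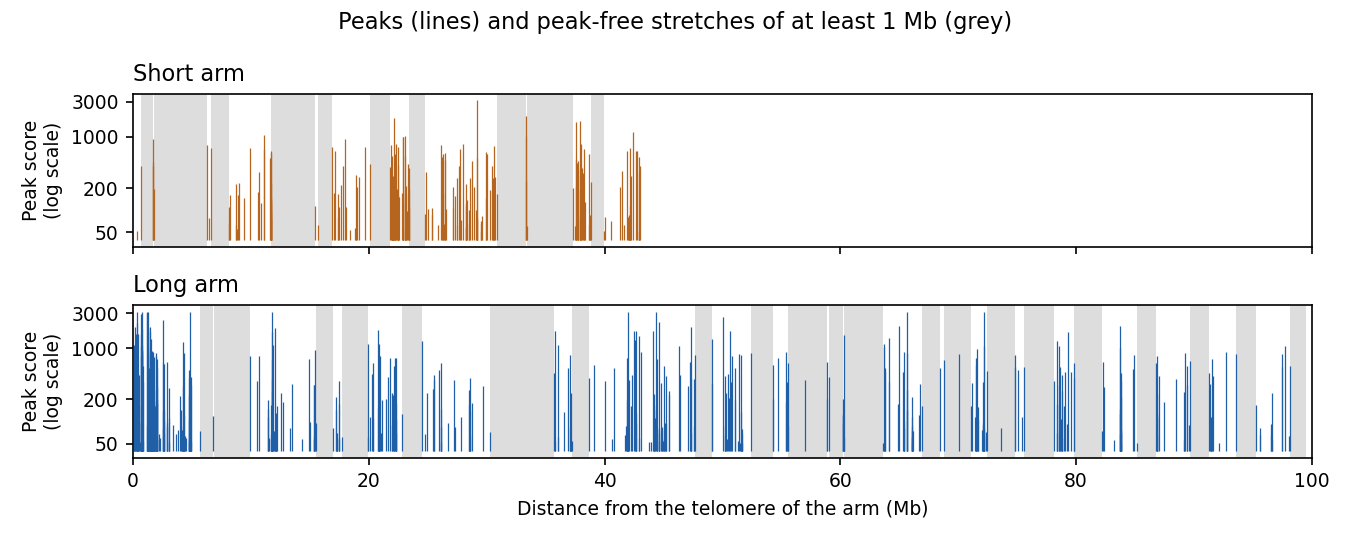
Each vertical line is a peak, with its top at the authors' score (log scale, y axis) and its place given as distance from the telomere of its arm (Mb, x axis), and grey marks peak-free stretches of at least 1 Mb. The stretches make up 51.3% of the short arm and 45.0% of the long arm, and the peaks crowd at the telomeric end of the long arm.

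MYC itself had no peak within 1 kb of a start site. The nearest peak lay 66.8 kb from its canonical start site, on the centromeric side (128680539 to 128681646, score 61.09). On the other side, 7 peaks overlapped PVT1, a long noncoding RNA gene, with scores from 57.78 to 358.3. No peak overlapped PCAT1, CCAT2, CASC8, CASC11, PRNCR1 or CASC19, noncoding genes around MYC that have been studied in cancer. Apart from MYC, these genes were picked after their values were seen.

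Gene groups were then read by arm, as counts of members with a promoter peak by midpoint beside the 54.6% of all coding genes. Their members were chosen with earlier results of these data known, so the counts are descriptions only. A peak near start sites of neighbouring genes counts for each of them. Groups differed in CpG-rich promoters, from 0 of 17 defensins to 17 of 20 cell cycle and DNA repair genes. The counts were not adjusted for this. Of 18 short-arm genes proposed as tumour suppressors, 12 had a peak, with a median score of 362.83 among those 12, near the median of all promoter peaks. The highest were DUSP4 (3100), the death receptor genes TNFRSF10A (1014.14) and TNFRSF10B (973.6), and PPP2R2A (774.71). Among those without one were DLC1, CSMD1, LZTS1, MSR1 and EGR3. Of 26 long-arm genes often gained in cancer, 22 had a peak, with a median of 720.23. CpG-rich promoters also numbered 22 of these 26, not all of them the same genes. Over the long arm, 68.75% of CpG-rich promoters had a peak by midpoint and 76.1% by any base at the canonical start site. YWHAZ (3100), PABPC1, the poly(A)-binding protein (2242.58), TATDN1 (1789.12) and AZIN1, which stabilises ornithine decarboxylase (1720.09), led. MYC, GRHL2, PSCA and STK3 had none.

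Most members of the translation and transcription machinery groups had a peak. These groups are broad: the translation list also holds CPSF1, an mRNA processing gene, and the transcription list holds YTHDF3, both with a peak. Translation and ribosome genes had one at 12 of 13 on the long arm, led by RPL8 (3100), RPL7 (3095.58), PABPC1 and RPL30 (1929.32), with BOP1 the exception. The only member on the short arm, EIF4EBP1, had one. Chromatin and transcription machinery had one at 11 of 11 genes on the short arm, including POLR3D (1770.51), ELP3 (797.01), ASH2L, a subunit of H3K4 methyltransferase complexes (784.6), and the Integrator subunit INTS10 (730.13). On the long arm 8 of 9 had one, with PUF60, a splicing factor (1917.39), the m6A reader YTHDF3 (637.89), POLR2K (419.64) and TAF2 (362.27) the highest and CHD7 without one.

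Cell cycle and DNA repair genes had a peak at 5 of 7 on the short arm, with scores of 392.49 at ESCO2, a cohesin acetyltransferase, 329.77 at PINX1, 168.01 at WRN, a RecQ helicase, and 107.82 at CDCA2. PBK and GINS4 had none. The ESCO2 peak lay nearest CCDC25 and 1.28 kb from the canonical start site of ESCO2, and the CDCA2 peak lay nearest KCTD9. On the long arm 12 of 13 had one, with 2966.19 at RECQL4, 1516.75 at E2F5, 898.57 at NBN, a subunit of the MRN complex, and 889.5 at RRM2B, and only RAD54B had none. The members' median scores were 168.01 and 563.755. The difference between arms rests on 7 and 13 genes and was not tested.

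Transcription factor genes were near the share of all coding genes, with 3 of 7 on the short arm and 12 of 23 on the long arm. CpG-rich promoters numbered 7 of 7 and 17 of 23 of them. By midpoint, CpG-rich genes had a peak at 74.8% on the short arm and 68.75% on the long arm. The counts of the factors are lower shares than these, and this was not tested. ZNF703 (1570.45), SOX7 (177.44) and EBF2 (63.58) had a peak on the short arm, while those without one included GATA4, NKX2-6 and EGR3. HEY1 (3100), ZNF706 (1728.35), KLF10, a TGF-beta-induced factor (1695.82), and E2F5 led on the long arm. Among the 11 long-arm factors without one were MYC, GRHL2, SOX17, TOX, RUNX1T1 and HSF1. For CEBPD and SCRT1 a peak reached within 1 kb of a start site while its midpoint did not (1057.79 and 348.62).

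Adhesion, matrix and growth factor genes had a peak at 5 of 11 and 8 of 16 members. Short-arm scores were 241.5 at ADAM9, a membrane metalloprotease, 209.41 at PTK2B, 128.67 at FGFR1, a fibroblast growth factor receptor, and 97.05 at LOXL2, a collagen-crosslinking oxidase. Long-arm scores were 867.35 at PTK2, the focal adhesion kinase, 773.71 at SDCBP, 717.03 at ASAP1 and 537.86 at PLEC. At PTK2B and PLEC the peak lay at an alternative start site, with none within 1 kb of the canonical one.

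Tissue-restricted groups were nearly without promoter peaks. CpG-rich promoters numbered 11 of 27 among the neuronal and synaptic genes and 4 of 22 among the metabolic and hormone genes. Genes listed as neuronal and synaptic had one at 1 of 12 on the short arm (NEFL, a neurofilament, 330.01) and 2 of 15 on the long arm (CRH, 92.27, and RIMS2, 86.71). That list is loose. It also holds SULF1, SGCZ, KCNU1 and CNBD1, none with a peak, whose restriction to neurons was not checked. Metabolic and hormone genes of restricted tissues had one at 1 of 9 (NAT1, an arylamine acetyltransferase, 111.28) and 0 of 13. The 11 LY6-family genes of the long arm, which encode small surface proteins and lie in its peak-rich telomeric end, had one at LY6E only (59.64). PSCA, the prostate stem cell antigen, was reached within 1 kb by a peak (611.49) whose midpoint lay farther off. The 17 short-arm defensin genes of the list, which leaves out further copies, had none. Genes are called without a peak where the deposited list has none there, and LSD1 below the calling threshold would not be seen.

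Sequence under the peaks away from promoters was searched for the AP-1 site TGACTCA on both strands, within the 200 bp at each midpoint. It was present in 7 of 56 intronic and intergenic peaks of the short arm (12.5%, 5.18 to 24.1) and 28 of 221 of the long arm (12.7%, 8.59 to 17.8), beside 7.93% of such peaks in the whole list. Windows of the same length 5 kb to either side held it in 0 of 112 and 14 of 442 cases (3.17%). At promoters it was present in 1.56% and 0.826% of peaks. A match describes the letters only and does not show that a factor was bound.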

How the data were processed

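LSD1 ChIP and input DNA of PC-3M-luc cells were measured, 1 library each. The reads were mapped to hg19 with bowtie 2, per the labels' protocols, and MACS 1.41 and Bowtie2 are named in the submitters' processing notes. Aligner and caller settings, read numbers, duplicates and multi-mapping reads are not given in the sources used here. The authors deposited 1 peak list whose score column has no stated unit. Its values start at 50, and it was used for ranking, filtering and description within the list. No label states that the list is LSD1 against input.

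No chromosome 8 peak ran past the chromosome end, overlapped another or touched an assembly gap. Genes came from GENCODE 44 mapped to GRCh37, and coordinates are 1-based. Peaks were classed by midpoint as promoter, exon, intron or intergenic, in that order. Densities have exact Poisson intervals, shares exact binomial (Clopper-Pearson) ones, ratios exact conditional ones, and medians order-statistic ones. Differences combine the intervals of both groups. No p-value was computed, since there is 1 library per group. The code was tested on simulated data.

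Genes were named by rule: per arm the 8 highest-scoring and 5 widest peaks, the 6 longest peak-free stretches, the busiest 5-Mb window with up to 6 genes, the peaks beside the boundary, and per list up to 4 members with the highest-scoring promoter peak and members without one. Some genes that meet the rule are not reported here by name. Genes with most peaks and those around MYC were added after their values were seen. The members and the 11 lists were chosen with earlier results of these data known. Alternatives were score filters, peak width, promoter windows, start-site sets, stretch lengths and removal of the telomeric 5 Mb. Removal of multi-copy families and CpG-rich genes alone were added after seeing the data. Python 3.11.15, numpy 2.4.6, scipy 1.17.1 and matplotlib 3.10.9 were used.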

Additional observations from a re-analysis of the deposited data

How the results depend on the processing

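Values are long arm against short arm. The ratio per Mb (1.11) fell below 1 without the last 5 Mb of the long arm (0.818) or of each arm (0.748), with intervals that exclude 1. The ratio per coding gene (1.69) was 1.27 with promoter peaks only. With all peaks counted, it was 1.34 without multi-copy families and 1.32 per CpG-rich gene. The last divides every peak of an arm by its CpG-rich genes and does not count the peaks at those genes. The median score difference (4.23) was 90.2 for scores of at least 100, 115 for scores at or above the list's median, both with intervals that exclude 0, and -12.3 without the widest 1% of peaks. The difference in the share of long peak-free stretches (-6.25 points) turned to 0.872 for scores of at least 100, 1.04 at or above the median, 0.368 without the last 5 Mb of each arm and 7.38 for stretches of at least 500 kb. It was -6.21 without the widest 1%, -3.97 without the last 5 Mb of the long arm and -14.0 for stretches of at least 2 Mb. The difference in genes with a promoter peak (10.2 points) was 17.8 with a window of 5 kb, -1.66 without multi-copy families and -6.08 with CpG-rich genes only. Its interval included 0 with canonical start sites alone (7.07), without the widest 1% (6.86), with joined peaks (7.56) and in the settings without families and with CpG-rich genes only. The cause was not tested. Removing families and keeping CpG-rich genes were chosen after seeing the data. Family genes came from the short arm only and had no promoter peak. Their removal could therefore only lower the ratio per gene and the difference in genes with a promoter peak. No paired analysis was possible because each group had 1 library, and the unknown read depth limits statements on genes without a peak.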
